A study of Mus musculus with 9 samples.

Results

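The Slc25 genes encode the mitochondrial carriers, which move metabolites, nucleotides, phosphate and cofactors across the inner mitochondrial membrane, and the uncoupling proteins Ucp1, Ucp2 and Ucp3 belong to the same protein family. Members were chosen by name from the deposited gene table: every gene whose name starts with Slc25a, with Ucp1, Ucp2 and Ucp3, leaving out Slc25a10, Slc25a17 and Slc25a20. This gave 47 of the 23420 genes in the table. RNA was sequenced from kidney cortex of 9 male C57/BL6 mice kept on chow, of which 5 had free access to food (fed) and 4 had been without food for 16 h (fasted). Each library came from about 50 mg of cortex of 1 mouse, and the labels name no genetic change in either group. The comparison asks which of these transcripts differ between fed and fasted kidneys. Values are normalized counts, which are reads divided by 1 scaling factor per library.

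Carriers of this family bring ADP, phosphate and fuel acids into the mitochondrion and take ATP, citrate, aspartate and other products out. Kidney tubule cells hold many mitochondria, because reabsorption of salt and solutes is paid for with ATP. Ucp1, the best-known member, lets protons flow back into the matrix of brown fat mitochondria so that heat is released.

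Libraries held 18902645 to 32469467 reads, so that 1 read was worth 0.744 to 1.32 normalized counts. The members took 0.411% to 0.449% of the reads in fed mice and 0.455% to 0.52% in fasted mice. Proximal tubule markers, which check the labelled tissue, were abundant in every mouse, and the summed level of all 9 was 439136 to 631033 in fed and 391249.7 to 456439 in fasted mice. Lrp2 and Slc34a1 made up most of this sum. Of the 9, Slc34a1 alone was called (log2 change -0.58, limma adjusted p = 0.0377), and the median log2 change was -0.35. Slc22a6 and Slc22a8 had log2 changes of 0.14 and 0.19, and all the others lay below 0. Lrp2, with -0.47, did not pass (limma adjusted p = 0.0664). Of the markers of other kidney cells, limma called the fibroblast gene Pdgfra (0.70) and the endothelial gene Pecam1 (0.35) higher, and the endothelial gene Kdr (-0.26) and the intercalated cell genes Slc4a1 (-0.58) and Foxi1 (-0.46) lower. The other fibroblast and smooth muscle markers, Pdgfrb (0.17), Acta2 (-0.37) and Myh11 (-0.07), were not called. Neither were Cdh5 (0.02) and Emcn (-0.05) of endothelium, nor Atp6v1g3 (-0.15) and Slc26a4 (-0.05) of intercalated cells. The part of the called marker shifts in the changes below was not tested. In pieces of tissue, fewer cells of a type and less RNA per cell cannot be told apart.

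The promoters of the 5 members with the largest rises in fasted mice are shown first. Slc25a25 and Slc25a22 have 3 listed starts each, of which the outermost is shown, and the innermost of Slc25a25 is added because it was the only one of these with a motif match. Each window is the 250 bases before a transcription start in the RefSeq promoter table (build GRCm38.p6), printed 5′ to 3′ on the strand of the gene, with matches to a searched motif in capitals. The Ucp3 window is chr7:100472741-100472990 on the plus strand, that of Ucp2 is chr7:100493108-100493357 on the plus strand, those of Slc25a25 are chr2:32451471-32451720 and chr2:32424067-32424316 on the minus strand, that of Slc25a22 is chr7:141437875-141438124 on the minus strand, and that of Slc25a34 is chr4:141623835-141624084 on the minus strand.
Ucp3: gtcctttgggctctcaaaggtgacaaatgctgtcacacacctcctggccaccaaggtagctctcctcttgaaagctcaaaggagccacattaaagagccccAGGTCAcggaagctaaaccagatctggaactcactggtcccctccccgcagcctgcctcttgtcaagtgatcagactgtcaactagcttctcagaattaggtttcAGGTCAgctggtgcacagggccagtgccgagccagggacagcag
Ucp2: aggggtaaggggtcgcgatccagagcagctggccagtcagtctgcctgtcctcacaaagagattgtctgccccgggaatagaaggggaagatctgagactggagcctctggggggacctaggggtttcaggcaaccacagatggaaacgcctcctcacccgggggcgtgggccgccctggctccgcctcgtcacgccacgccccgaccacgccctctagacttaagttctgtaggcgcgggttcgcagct
Slc25a25, outermost start: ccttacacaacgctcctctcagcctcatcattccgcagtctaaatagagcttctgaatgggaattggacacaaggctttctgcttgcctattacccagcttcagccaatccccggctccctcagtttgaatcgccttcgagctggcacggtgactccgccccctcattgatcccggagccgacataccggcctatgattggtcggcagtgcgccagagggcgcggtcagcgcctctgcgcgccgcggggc
Slc25a25, innermost start: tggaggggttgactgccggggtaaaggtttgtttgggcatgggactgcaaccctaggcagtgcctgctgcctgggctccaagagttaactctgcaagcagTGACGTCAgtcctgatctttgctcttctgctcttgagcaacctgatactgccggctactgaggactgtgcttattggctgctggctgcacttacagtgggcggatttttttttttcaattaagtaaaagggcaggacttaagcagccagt
Slc25a22, outermost start: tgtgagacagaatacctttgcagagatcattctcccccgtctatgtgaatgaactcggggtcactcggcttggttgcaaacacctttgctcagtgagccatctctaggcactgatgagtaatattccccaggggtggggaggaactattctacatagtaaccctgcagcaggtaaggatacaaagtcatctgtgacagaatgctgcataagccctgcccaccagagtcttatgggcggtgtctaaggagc
Slc25a34: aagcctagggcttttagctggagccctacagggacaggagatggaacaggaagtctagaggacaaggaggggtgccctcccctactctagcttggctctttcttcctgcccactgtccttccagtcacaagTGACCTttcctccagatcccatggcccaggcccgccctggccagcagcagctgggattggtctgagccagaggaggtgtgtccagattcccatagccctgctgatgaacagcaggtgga

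The table held 46 promoter windows for 36 of the 47 members, and 6 motifs were searched on both strands. The nuclear receptor half-site AGGTCA was found in 6 of the 46 windows (13%), from 6 members, and in 14% of all 32851 promoters of the table. Ucp3 holds it at 149 to 144 and again at 44 to 39 bases before the start, and Slc25a34 holds its reverse complement at 119 to 114 bases before the start. The cAMP response element TGACGTCA was found in 2 of the 46 windows (4.35%), from Slc25a25 and Slc25a36, and in 1.55% of all promoters. In Slc25a25 it lies at 150 to 143 bases before the innermost of 3 listed starts, and the windows of the other starts hold no match. The E-box CACGTG was found in 8 of the 46 windows (17.4%), from 7 members of which none was called, and in 6.02% of all promoters. None of the 46 windows holds the forkhead site GTAAACA (3.17% of all promoters), the palindromic NRF1 site (0.782%) or the direct repeat of AGGTCA spaced by 1 base (0.0335%). A match to that repeat would also count as matches to AGGTCA. The Ucp2 window and the 3 windows of Slc25a22 hold none of the 6 motifs.

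Of the 47 members, 43 reached a mean of 10 normalized counts and were tested, and Ucp1, Slc25a31, Slc25a41 and Slc25a54 did not. In fasted kidneys 7 members rose and 3 fell at a Benjamini-Hochberg adjusted p under 0.05 from limma, a linear model on log2(normalized count + 1) fitted over all 15098 tested genes. Those that rose were Ucp3, Slc25a25, Ucp2, Slc25a22, Slc25a34, Slc25a30 and Slc25a42, and those that fell include Slc25a48 and Slc25a38. Of all tested genes, 1656 passed in either direction (11%), and 26.8% had an unadjusted p under 0.05 with limma. The share of members that rose was 16.3%, against 5.72% of all genes, and the share that fell was 6.98%, against 5.25%, near the background. Every fasted mouse lay above every fed mouse for 9 members (20.9%, against 7.62% of all genes) and below for 3 (6.98%, against 6.64%). The 9 are the 7 that rose with Slc25a5 and Slc25a53, and the 3 are those that fell. Ucp3 is among the 7 and the 9, though it reached the mean of 10 only through the fasted group. The median log2 change of the 43 was 0.01, beside 0.00 for all genes, and 25 of the 43 changed by less than 0.25 in either direction. The authors' deposited table gives 8 members higher and 7 lower at an adjusted p under 0.05. The shares over all genes by the authors' test were not counted, so these counts have no background beside them. The limma p-values set the difference between the groups against the spread of these 9 mice within their groups. Limma draws that spread toward a trend over all tested genes.

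Levels of different genes were compared per kilobase of the principal transcript (GENCODE M21 on GRCm38, the source of all gene positions below). The 3 highest members held 50.3% of the summed level of the family and the 10 highest held 80.0%. Fed means per kilobase were 9610.3 for Slc25a3, 9416 for Slc25a5, 6788 for Slc25a39, 3708 for Slc25a4 and 2320.4 for Slc25a11. Slc25a25 went from a fed mean of 1366 per kilobase to a fasted mean of 5266, which lies above the fasted mean of Slc25a4, 3728. Ucp2 had 246 per kilobase in fed and 779.8 in fasted mice, and Ucp3 had 1.70 and 11.4.

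**Figure D1:**
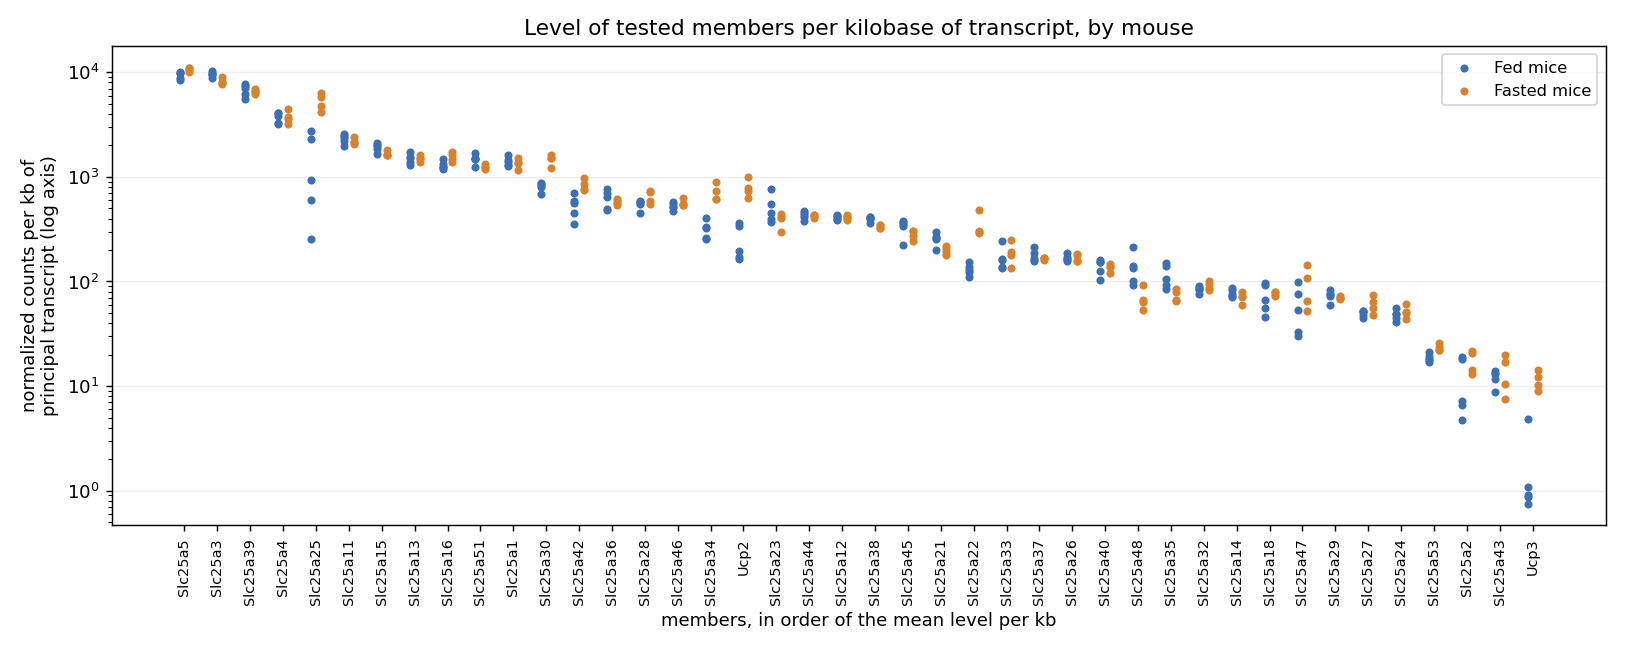
Level of tested members in normalized counts per kilobase of principal transcript (log axis), in order of level, for fed and fasted mice. Slc25a5 and Slc25a3 lie at the high end, with fed means of 9416 and 9610.3, and Ucp3 lies near the low end, with fed and fasted means of 1.70 and 11.4.

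Both measurable uncoupling proteins were higher in fasted than in fed mice. Ucp2, the form found in many tissues, had 654, 787, 1342, 686 and 1442 normalized counts in fed mice 1 to 5 and 2486, 2895, 3958 and 3099.7 in fasted mice 1 to 4. The groups did not overlap, and Fed 3 and Fed 5 were the highest of the fed mice. It rose from 982 ± 379 (SD, n = 5) to 3109.7 ± 621 (SD, n = 4), a log2 change of 1.72 (SE 0.24, limma adjusted p = 0.00166). Ucp2 lies on chromosome 7 from 100493337 to 100502020 on the plus strand. Its exons share 305 bases with those of Dnajb13 on the other strand, a gene that had 3.22 to 10.5 normalized counts in fed and 24.0 to 33.6 in fasted mice. Dnajb13 reached the mean of 10 needed for a test only through the fasted group, so no test of it is given. Since the sources used here do not say whether counting used the strand, reads of the shared bases cannot be assigned to one gene. Macrophages also express Ucp2, and their 4 measured markers summed to 1712 to 2309 in fed and 1368 to 2157 in fasted mice. Most of this sum was Csf1r, with a log2 change of -0.33, while Cd68, Emr1 and Lyz2 had 0.21, 0.23 and 0.16. None of the 4 was called by limma (adjusted p of 0.112 to 0.738).

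Ucp3, the form best known from skeletal muscle, had 2.23, 1.84, 2.63, 2.15 and 11.9 normalized counts in fed mice 1 to 5, from 3, 2, 2, 2 and 12 reads. The fasted mice 1 to 4 had 25.1, 29.6, 22.1 and 34.7, from 27, 23, 23 and 39 reads. Fed 5 stood apart from the other fed mice and still lay below every fasted mouse. Ucp3 went from 4.16 ± 4.36 to 27.9 ± 5.50, a log2 change of 2.75 (SE 0.44). It reached the mean of 10 only through the fasted group, so a gene this low could be tested only if that group was high. For that reason no adjusted p of Ucp3 is given. The muscle genes Ckm and Acta1 were near 0 in every mouse, at most 3.22 and 3.86, and the 3 muscle markers summed to 8.93 to 22.9 in fed and 12.1 to 17.8 in fasted mice. Ucp3 lies on chromosome 7 from 100472990 to 100486432 on the plus strand, and 6904 bases separate its end from the start of Ucp2.

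Ucp1, the heat-producing form of brown fat, was nearly undetected. There was 1 read in Fed 2, there were 2 reads in Fasted 3, and all other libraries had 0. The 4 brown adipocyte markers summed to 160.1 to 381 in fed and 131 to 176 in fasted mice. Most of this sum was Cox7a1, which fell (log2 change -0.68, limma adjusted p = 0.0209). Elovl3 ran from 0 to 111 in fed and from 3.86 to 27.8 in fasted mice. The brown fat genes Cidea and Cox8b reached at most 5.14 and 7.67. The 4 white adipocyte markers summed to 513 to 792 in fed and 789.6 to 1117 in fasted mice. Most of this sum was Fabp4, which rose (log2 change 0.67, limma adjusted p = 0.00888). Plin1 had 0 to 1.84 in fed mice and 6.51, 70.7, 1.92 and 10.7 in fasted mice 1 to 4, so that it reached the mean of 10 only through the fasted group and mostly through Fasted 2, and no test of it is given. Cidec had 2.63 to 22.9 in fed and 9.59 to 73.3 in fasted mice, and was also highest in Fasted 2. With a fed mean of 8.39 it too reached the mean of 10 only through the fasted group, and limma did not call it. Adipoq, the most specific of these white adipocyte markers, was at or near 0 in every mouse (at most 2.79). The part of fat cell transcripts in the rises of Ucp2 and Ucp3 was not tested.

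Carriers close to the uncoupling proteins in sequence held 1 rise. Slc25a30, first described in kidney, had 3121, 2903, 3078, 2474 and 2909 normalized counts in fed mice 1 to 5 and 5385, 5808, 5438 and 4328 in fasted mice 1 to 4. All fasted mice lay above all fed mice. It rose from 2897 ± 256 to 5239.6 ± 636, a log2 change of 0.85 (SE 0.10, limma adjusted p = 0.000452). The gene lies on chromosome 14 from 75760117 to 75787037 on the minus strand. The brain forms Slc25a27 and Slc25a14 were scarce here and did not pass. Slc25a27 had 143 ± 9.64 and 175 ± 32.6 (limma adjusted p = 0.222), and Slc25a14 had 137 ± 11.8 and 124 ± 13.9 (0.459).

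**Figure D2:**
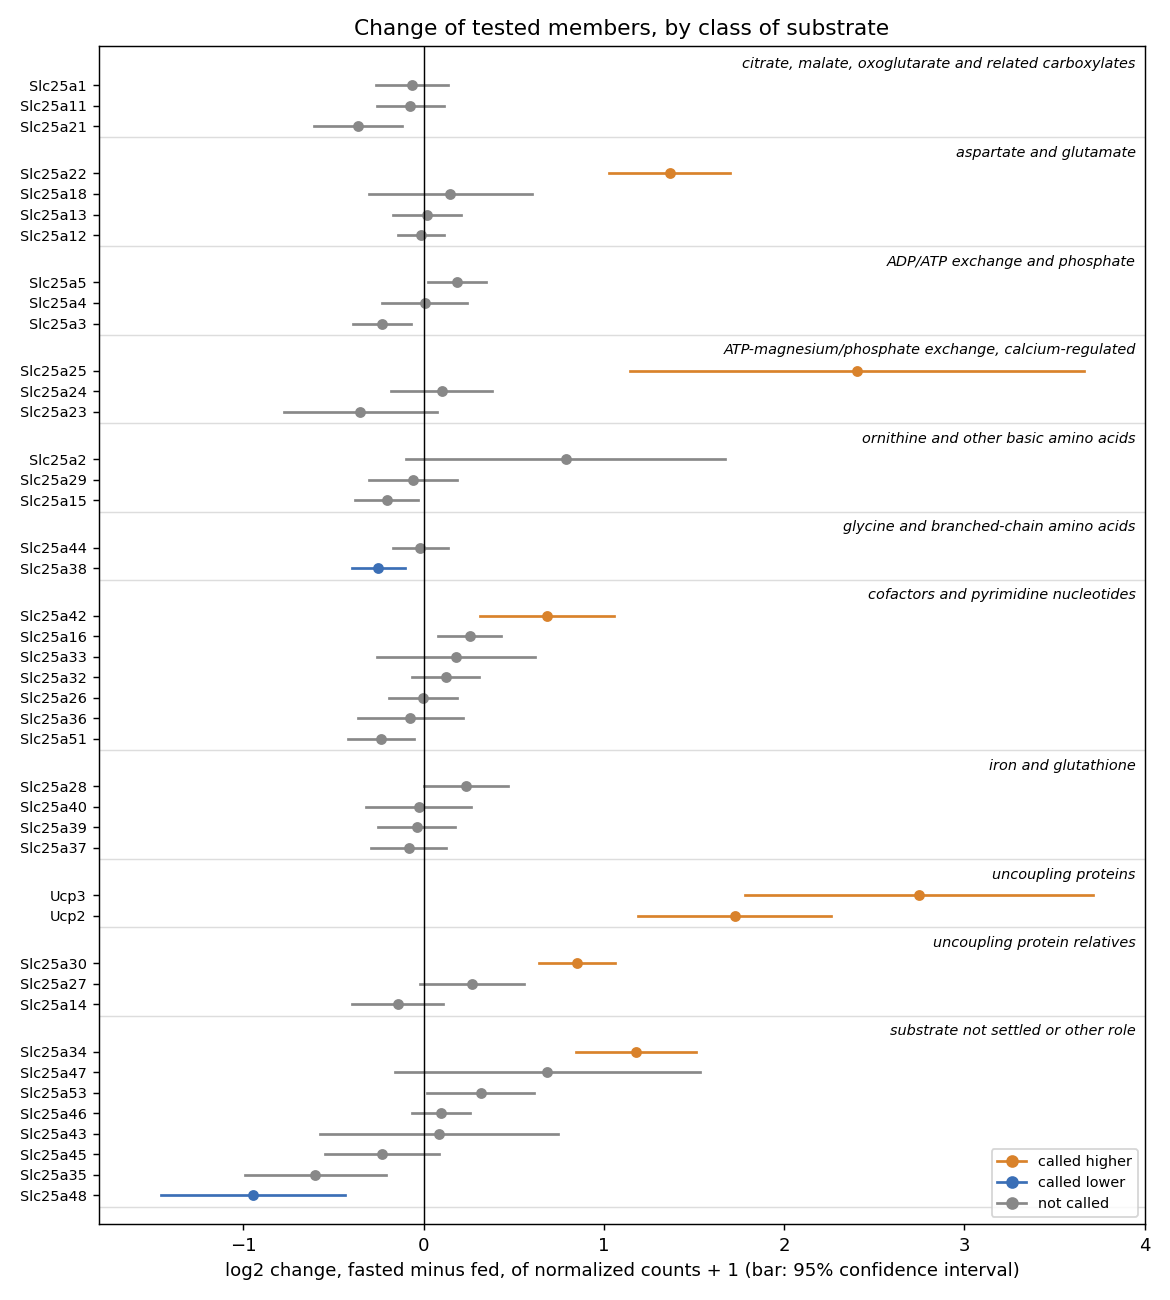
Log2 change, fasted minus fed, of 42 tested members with 95% confidence intervals from limma, grouped by class of substrate, with called members in colour. Ucp3 (2.75), Slc25a25 (2.40) and Ucp2 (1.72) lie farthest from 0, and 25 lie within 0.25 of it.

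Calcium-regulated carriers exchange ATP-magnesium for phosphate and so adjust the adenine nucleotide pool of the matrix. Slc25a25, one of them, had 1997, 7522, 9070.2, 3059 and 848 normalized counts in fed mice 1 to 5 and 13816, 15719.6, 20731 and 19115 in fasted mice 1 to 4. Its fed mice differed by 10.7-fold between Fed 5, the lowest, and Fed 3, the highest, yet none reached the lowest fasted mouse. It rose from 4499 ± 3595 to 17345 ± 3146, a ratio of means of 3.86. The limma log2 change was 2.40 (SE 0.57, 95% interval 1.15 to 3.66, limma adjusted p = 0.0224). That value compares means of logs, so it differs from the ratio of means, and it ran from 1.92 to 2.88 in other fits. Dropping Fed 1 moved the limma adjusted p to 0.0564, and dropping Fasted 2, Fasted 3 or Fasted 4 moved it to 0.0524, 0.0602 or 0.0654, each above the threshold of 0.05. Slc25a25 lies on chromosome 2 from 32414487 to 32451445 on the minus strand, and shares 379 exon bases with Naif1 on the other strand, which had 105 ± 17.6 and 99.8 ± 17.8.

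The other members of this class were not called. Slc25a23 had 1703 ± 530.3 in fed and 1303 ± 208 in fasted mice, a log2 change of -0.35 (SE 0.19, limma adjusted p = 0.278). Slc25a24 had 164 ± 19.9 and 176 ± 24.6 (limma adjusted p = 0.657). Slc25a41, placed in this class by its substrate alone, had at most 4.97 in any mouse and was not tested.

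Carriers of aspartate and glutamate serve the malate-aspartate shuttle and glutamate breakdown in the matrix. Slc25a22, a glutamate carrier, had 390.0, 364, 430.2, 310.3 and 350.1 normalized counts in fed mice 1 to 5 and 820.3, 1369, 843 and 847 in fasted mice 1 to 4. Fasted 2 stood far above the other fasted mice, and each of those still lay well above every fed mouse. It rose from 369 ± 44.8 to 969.9 ± 266, a log2 change of 1.37 (SE 0.15, limma adjusted p = 0.000452). Slc25a22 lies on chromosome 7 from 141429744 to 141437892 on the minus strand. The second glutamate carrier, Slc25a18, had 137 ± 43.5 and 146 ± 5.84 (limma adjusted p = 0.688). The aspartate-glutamate exchangers did not pass, and their intervals are narrow. Slc25a13 had 4654 ± 518 and 4697 ± 281, with a 95% interval of the log2 change of -0.17 to 0.21. Slc25a12 had 2612 ± 113 and 2585 ± 114, with an interval of -0.14 to 0.11.

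Among the 3 carriers of citrate, malate, oxoglutarate and related acids, limma called none. At an unadjusted p under 0.05 limma had 1, beside 26.8% of all tested genes. With edgeR 0 were called, and DESeq2 and voom each called 1 lower, Slc25a21. Slc25a11, the exchanger of oxoglutarate for malate, had 4006, 4243, 3348, 4445 and 3808 normalized counts in fed mice 1 to 5 and 3560.3, 4094, 3669.5 and 3709 in fasted mice 1 to 4. The groups overlapped, and the 95% interval of its log2 change was -0.26 to 0.11. Slc25a1, the citrate carrier, had 2341 ± 233 and 2235 ± 236 (interval -0.27 to 0.13). Slc25a21, a carrier of longer oxodicarboxylates, had 669.6 ± 94.3 and 516 ± 43.8, a log2 change of -0.37 (SE 0.11, limma adjusted p = 0.0592, and 0.00866 without Fed 5).

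Exchange of ADP for ATP and uptake of phosphate supply the ATP synthase, and carriers of this class were among the most abundant. Limma called none of the 3 tested. At an unadjusted p under 0.05 it had 2, beside 26.8% of all tested genes. With edgeR 0 were called, and DESeq2 and voom each called 1 lower, Slc25a3. Slc25a5, an ADP/ATP carrier, had 12201, 12431, 10465, 12239.9 and 11042 normalized counts in fed mice 1 to 5 and 12434, 13734, 13169 and 13627 in fasted mice 1 to 4. Every fasted mouse lay above every fed mouse, by a narrow margin between Fasted 1 and Fed 2, and the log2 change of 0.18 (SE 0.07) did not pass (limma adjusted p = 0.132). Slc25a4, the main ADP/ATP carrier of muscle and heart, had 7790.3, 7918, 6199, 7419.7 and 6368 normalized counts in fed mice 1 to 5 and 6134, 8501, 6933 and 7140.1 in fasted mice 1 to 4. Its groups overlapped, with a log2 change of 0.01 (SE 0.11, limma adjusted p = 0.982). Slc25a3, the phosphate carrier, had 16595, 15436, 15925, 15341 and 14162 normalized counts in fed mice 1 to 5 and 12507, 14559, 13139 and 12669 in fasted mice 1 to 4. Fasted 2 alone reached into the fed range, and the log2 change of -0.23 (SE 0.07) did not pass (limma adjusted p = 0.0682, against 0.0141 with DESeq2). Slc25a4 and Slc25a5 are close copies of one another, so reads that match both may have been split or dropped in counting, and their levels are uncertain. Slc25a31, the ADP/ATP carrier of testis, had at most 3.86 and was not tested.

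**Figure D3:**
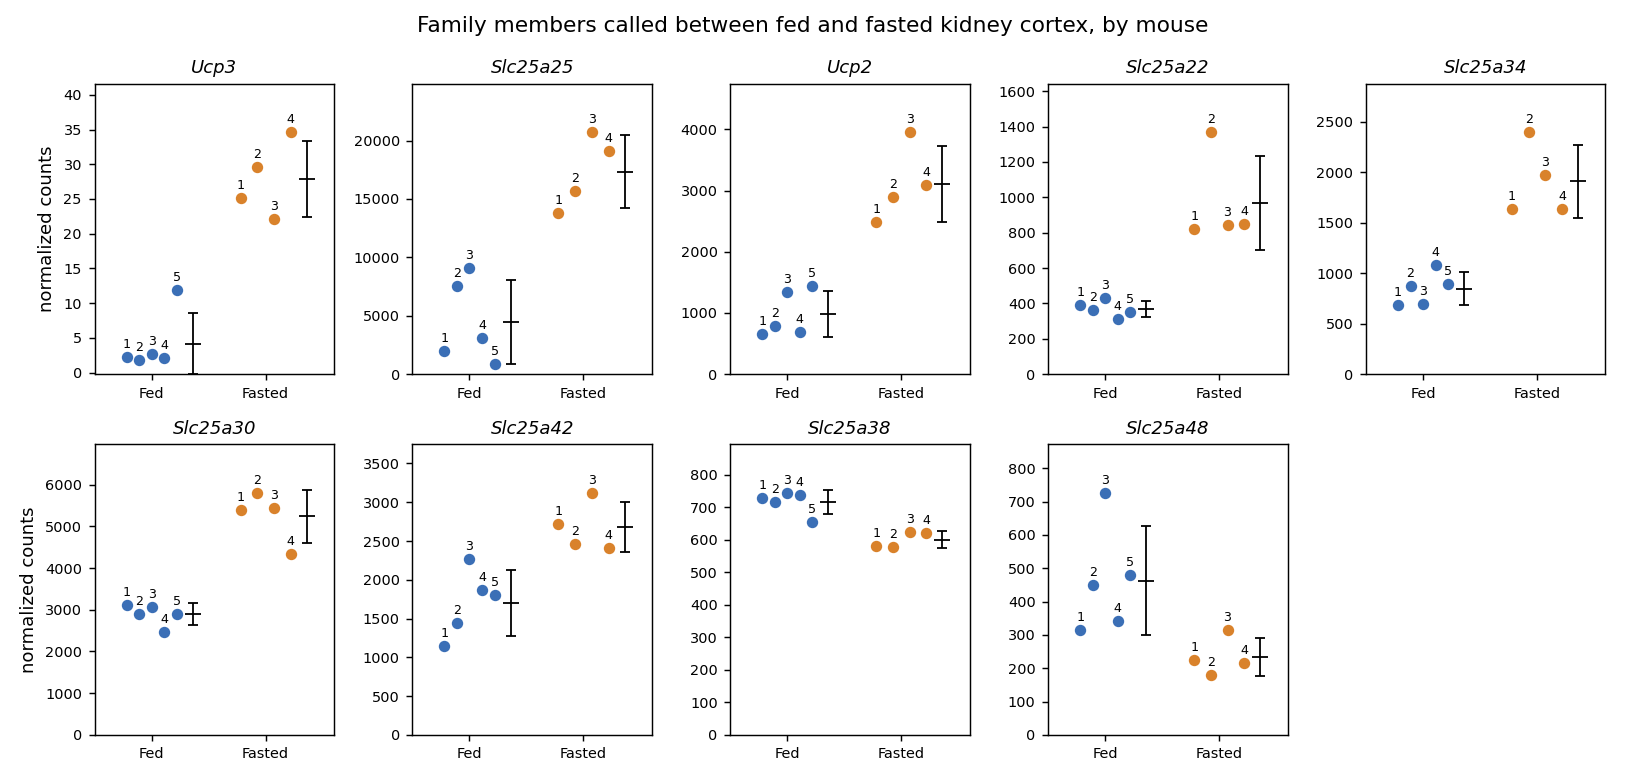
Normalized counts of 9 called members, 1 panel per gene with its own axis and 1 point per mouse (5 fed, 4 fasted), with group means and SD. The groups do not overlap in any panel, and the fed points of Slc25a25 range from 848 to 9070.2.

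Among cofactor and pyrimidine carriers, Slc25a42 rose. Slc25a42, which brings coenzyme A into the matrix, had 1143, 1447, 2263, 1865 and 1805 normalized counts in fed mice 1 to 5 and 2715, 2463, 3122 and 2412 in fasted mice 1 to 4. The groups did not overlap, with Fed 3 just under the lowest fasted mouse. It rose from 1705 ± 427 to 2678 ± 324, a log2 change of 0.68 (SE 0.17, limma adjusted p = 0.0266). It no longer passed when Fed 2 was dropped (limma adjusted p = 0.0588), or Fasted 1 (0.0661), Fasted 2 (0.0504), Fasted 3 (0.0759) or Fasted 4 (0.0519). The gene lies on chromosome 8 from 70184340 to 70212305 on the minus strand.

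A further 6 of this class did not pass with limma, with log2 changes between -0.24 for Slc25a51, the NAD carrier, and 0.25 for Slc25a16. Slc25a51 had 6575 ± 699 and 5552 ± 258 (limma adjusted p = 0.0909), and Slc25a16 had 4095 ± 329.9 and 4889 ± 451 (0.0674). DESeq2 called Slc25a16 higher (adjusted p = 0.0278) and Slc25a51 lower (0.0436), and voom called Slc25a51 lower (0.027). The folate carrier Slc25a32, the S-adenosylmethionine carrier Slc25a26 and the pyrimidine nucleotide carriers Slc25a33 and Slc25a36 lay between them.

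Of the glycine and branched-chain amino acid carriers, 1 fell. Slc25a38, which brings in glycine for haem synthesis, had 728, 716, 745, 738 and 654 normalized counts in fed mice 1 to 5 and 579, 577, 625 and 622 in fasted mice 1 to 4. The groups did not overlap, and the difference is small. It fell by 0.25 on the log2 scale (SE 0.07, limma adjusted p = 0.0344), from 716 ± 36.1 to 601 ± 26.1. It did not pass once Fed 1 was dropped (limma adjusted p = 0.078), or Fed 2 (0.0712), Fed 4 (0.0636) or any 1 of the 4 fasted mice (0.0603 to 0.0923). Slc25a38 lies on chromosome 9 from 120110374 to 120124504 on the plus strand. Slc25a44, the carrier of branched-chain amino acids, had 1508 ± 120.0 and 1486 ± 54.8 (limma adjusted p = 0.896).

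Limma called none of the 3 carriers of ornithine and other basic amino acids. It had 1 at an unadjusted p under 0.05, beside 26.8% of all tested genes. With edgeR and DESeq2 0 were called, and voom called 1 lower, Slc25a15. This ornithine carrier of the urea cycle had 6579 ± 599 and 5697 ± 358, a log2 change of -0.20 (SE 0.08, limma adjusted p = 0.124). Slc25a29 had 145 ± 16.8 and 138 ± 4.19, and Slc25a2, a relative of Slc25a15, had 6.44 to 25.8 in fed and 18.0 to 29.7 in fasted mice.

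Among the 4 carriers tied to iron and glutathione none was called by limma, edgeR, DESeq2 or voom. Limma had 1 at an unadjusted p under 0.05, beside 26.8% of all tested genes. Slc25a39, which brings glutathione into the matrix, had 11854, 12501, 10349, 13019 and 9464 normalized counts in fed mice 1 to 5 and 10417, 11787, 11069.9 and 10998 in fasted mice 1 to 4. The fasted mice all lay inside the fed range (log2 change -0.04, SE 0.10, limma adjusted p = 0.838). Its relative Slc25a40 had 389.8 ± 67.9 and 378 ± 33.2. The iron carriers Slc25a28 and Slc25a37 had log2 changes of 0.23 (limma adjusted p = 0.183) and -0.08 (0.613).

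Members whose substrate is not settled, or that serve another role, held 1 rise and 1 fall among 8 tested. Slc25a34 had 683, 871, 695, 1085 and 893 normalized counts in fed mice 1 to 5 and 1635, 2397, 1968 and 1634 in fasted mice 1 to 4. All fasted mice lay above all fed mice. It rose from 845 ± 165 to 1909 ± 362, a log2 change of 1.18 (SE 0.15, limma adjusted p = 0.000939). Slc25a34 lies on chromosome 4 from 141618824 to 141623821 on the minus strand. Slc25a48 had 314, 450.2, 726, 343 and 478 normalized counts in fed mice 1 to 5 and 225, 179, 314 and 216 in fasted mice 1 to 4. The highest fasted mouse, Fasted 3, lay just under the lowest fed mouse, Fed 1. Slc25a48 fell by 0.95 on the log2 scale (SE 0.23, limma adjusted p = 0.0253), from 462 ± 163 to 233 ± 57.2. Dropping Fed 2 (limma adjusted p = 0.0512), Fasted 1 (0.0622), Fasted 2 (0.0733) or Fasted 4 (0.0739) ended the call. The gene lies on chromosome 13 from 56438355 to 56474239 on the plus strand.

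Of the rest of this class, Slc25a35 came nearest to the threshold, with 209 ± 53.3 and 135 ± 17.5 (log2 change -0.60, SE 0.18, limma adjusted p = 0.0539). DESeq2 called it lower (adjusted p = 0.0125). Its value is uncertain, since 31.3% of its exon bases overlap Rangrf. Slc25a53 had 43.4 to 54.8 in fed and 56.6 to 65.8 in fasted mice, with no overlap, and did not pass (limma adjusted p = 0.159). Slc25a47, a carrier known from liver, had 47.6 to 156 in fed and 81.8 to 226 in fasted mice (limma adjusted p = 0.285). Of 7 liver marker genes none was called, 5 had log2 changes above 0, and Ttr and Cyp2e1 had -0.50 and -0.04. Alb, 1 of the 7, ran from 251 to 10091 in fed and from 1848 to 7396 in fasted mice. The part of liver transcripts in the values of Slc25a47 was not tested. Slc25a45, Slc25a46, which acts in mitochondrial division, and Slc25a43 had log2 changes of -0.23, 0.10 and 0.08 and did not pass. Slc25a54 had 1 read in Fed 2 and 0 elsewhere.

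Other proteins that move ions and metabolites across mitochondrial membranes were compared next. Of 23 tested, 1 rose and 3 fell, with a median log2 change of -0.05. Over all tested genes, 5.72% rose and 5.25% fell. The calcium uniporter gene Mcu rose by 0.32 on the log2 scale (SE 0.08, limma adjusted p = 0.0313). The sideroflexin gene Sfxn5 fell by 0.28 (limma adjusted p = 0.0142), Letm1, a cation exchanger, fell by 0.32 (0.0248), and Abcb10, a transporter of the haem pathway, fell by 0.29 (0.0311). Efha2 and Abcb6 did not pass (limma adjusted p = 0.114 and 0.249).

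Among 31 enzymes that make or use the carried substrates, 6 rose and 3 fell, beside 5.72% and 5.25% of all tested genes. Their median log2 change was -0.04. Glud1, glutamate dehydrogenase, rose by 0.65 on the log2 scale (SE 0.14, limma adjusted p = 0.014), and Pank1, which starts coenzyme A synthesis, by 0.67 (SE 0.14, 0.0145). Gpd1, glycerol phosphate dehydrogenase, rose from 8509.8 ± 792 to 15375 ± 2266, a log2 change of 0.85 (limma adjusted p = 0.000921). Arg2, the mitochondrial arginase, rose from 147 ± 79.2 to 399 ± 116, a log2 change of 1.52 (limma adjusted p = 0.0133). Fech, which puts iron into haem, rose by 0.32 (limma adjusted p = 0.0104), and Nadkd1, the mitochondrial NAD kinase, by 0.25 (0.0469). Those that fell were Cs, citrate synthase, by 0.29 on the log2 scale (limma adjusted p = 0.0192), Ckmt1, a mitochondrial creatine kinase, by 0.46 (0.00659) and Mthfd2, a folate enzyme, by 0.70 (0.0301). Nmnat3, Mdh2 and Gpd2 came next and did not pass (limma adjusted p = 0.0562, 0.0607 and 0.0646).

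Of 20 genes of mitochondrial protein import and content, 1 rose and none fell with limma, beside 5.72% and 5.25% of all tested genes. The median log2 change was -0.02. At an unadjusted p under 0.05 limma had 4 of the 20, beside 26.8% of all tested genes. With edgeR none was called lower, and DESeq2 and voom each called 2 lower. The rise was that of Tomm20, an import receptor of the outer membrane (log2 change 0.43, SE 0.12, limma adjusted p = 0.0421). Hspe1, Mfn2 and Timm23 came next and did not pass (limma adjusted p = 0.0791, 0.0824 and 0.181). Of 15 regulators tied to mitochondrial gene expression, limma called none and had 5 at an unadjusted p under 0.05, beside 26.8% of all tested genes. For these regulators edgeR called 0, DESeq2 called 1 higher and 2 lower, and voom called 2 higher and 2 lower. Esrra, a nuclear receptor of mitochondrial genes, had a log2 change of -0.34 (SE 0.10, limma adjusted p = 0.0516). Ppara, a receptor for fatty acids, had 5420.0 ± 1346 and 7609 ± 931, a log2 change of 0.51 (SE 0.15, limma adjusted p = 0.0554), and Ppard had -1.25 (0.0888).

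**Figure D4:**
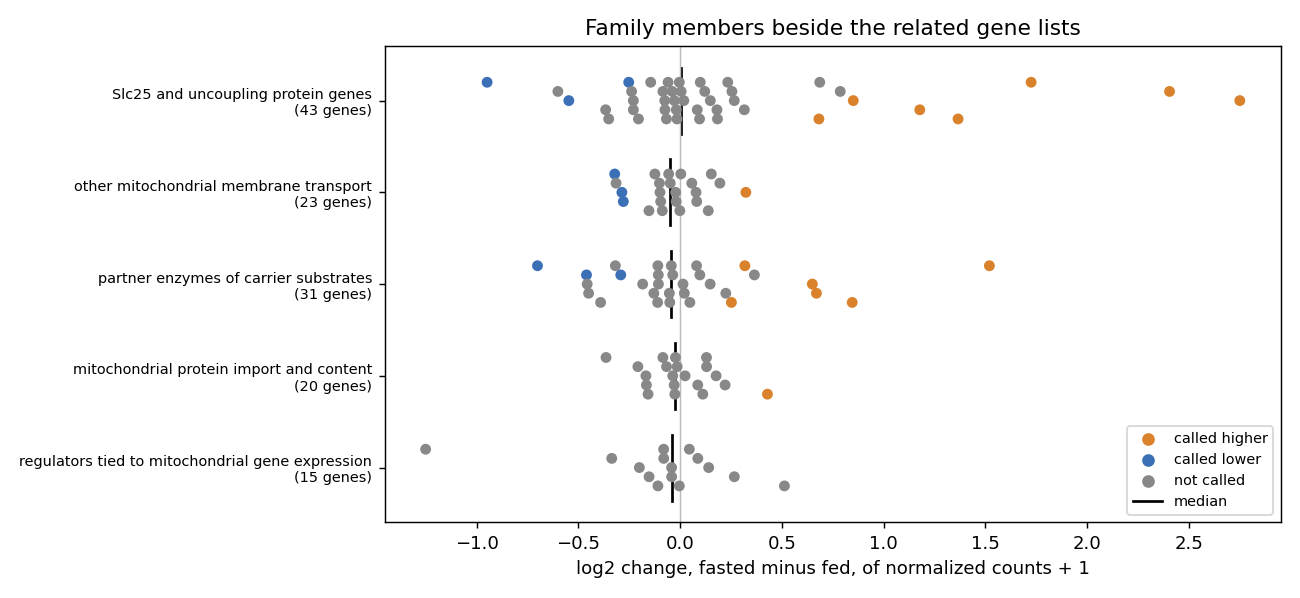
Log2 change, fasted minus fed, of the 43 tested members and the 4 related gene lists, with 1 point per gene, the median of each list and called genes in colour. The medians lie between -0.05 and 0.01. The highest member, Ucp3 (2.75), reached the mean of 10 needed for a test only through the fasted group. Slc25a25 comes next with 2.40, and the highest value in the related lists is 1.52 for Arg2.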

How the data were processed

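RNA from kidney cortex of 9 mice (5 fed, 4 fasted) went into TruSeq libraries, as the labels' protocols state. FastQC, TopHat2 2.0.9, HTSeq 0.9.1 and DESeq2, its version given as 3.5, were used per the submitters' processing notes, where mm10 and hg19 are the builds named. The annotation and the strand setting used in counting are not given in the sources used here. The deposited signal (normalized counts, 1 column per mouse) was made by the authors, who scaled the reads of each library by a single factor. Dividing by the value of 1 read gave whole numbers (within 0.01 reads) for all 161194 values above 0, so reads were recovered, and 0 sample columns went unused. The deposited log2 fold changes and adjusted p-values are those of the authors, and only counts of them are given.

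Differences were tested two-sided on log2(value + 1) by limma 3.58.1 (trend, R 4.3.3), keeping genes whose mean reached 10 normalized counts. This scale understates changes of low genes. Alternatives included edgeR 4.0.16, DESeq2 1.42.0 and voom on recovered reads, other filters, pseudocounts and scalings, and leaving out mice. The pipeline was tested on simulated data. The family, the substrate classes and the related lists were chosen with earlier results of these data known. Values per mouse were given for called members, the 6 with the highest level per kilobase and the uncoupling proteins, and of related lists for called genes and up to 3 others with the smallest adjusted p. Values of 1 called member and of 1 gene of a related list are not reported here.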

Additional observations from a re-analysis of the deposited data

Results flagged for a closer look

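Within a group, 1 mouse lay far from all the others for 6 of the 86 groups searched (43 members, fed and fasted). Chance alone flags about 1 in 20 such groups. Fasted 2 was the high mouse for 3 members. It had 1369 normalized counts of Slc25a22, where the other fasted mice had 820.3 to 847. Slc25a15 stood at 6233 in that mouse against 5498 to 5531, and Slc25a46 at 2768 against 2363 to 2395. Among fed mice, Fed 5 had 11.9 normalized counts of Ucp3, where the others had 1.84 to 2.63. Fed 5 was also low for Slc25a45, with 559 against 848 to 945. Slc25a33 was high in Fed 3, with 456 against 255 to 308.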

How the results depend on the processing

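Across 20 other fits and 2 other thresholds the number of members that rose stayed between 5 and 8, and the number that fell was less stable. These counts include Ucp3 wherever it passed. Ucp2, Slc25a22, Slc25a34 and Slc25a30 passed in all 20 fits. Ucp3 passed with a mean of at least 1 and with no filter, which do not need a high fasted group to keep it. DESeq2 gave Ucp3 no adjusted p, and a mean of at least 50 left it untested. All its other fits kept Ucp3 only through the fasted group, so its passing in them adds no support. No called member changed sign in any fit that gave it an adjusted p. The count of members that fell was 3, and became 5 under quantile normalization, 7 with DESeq2, 7 with voom, 1 without Fed 3 and Fasted 1 (the libraries richest in ribosomal Rn45s reads), 1 at a threshold of 0.01 and 7 at 0.1. Leaving out 1 mouse gave 1 (without Fed 2, Fasted 1 or Fasted 4) to 8 (without Fed 5) members that fell and 5 to 8 that rose. The number of all tested genes that fell moved too. It was 793 in the main fit, 834 under quantile normalization, 1164 with DESeq2 and 1378 with voom. Without Fed 5 it was 1033, and without Fed 3 and Fasted 1 it was 486. Another 7 members passed in some fit. DESeq2 called Slc25a3, Slc25a16, Slc25a21, Slc25a35 and Slc25a51, voom called Slc25a3, Slc25a15, Slc25a21 and Slc25a51, and quantile normalization Slc25a3, Slc25a16 and Slc25a35. Leaving out 1 mouse added Slc25a3, Slc25a15, Slc25a21, Slc25a45 and Slc25a51 without Fed 5, Slc25a3 without Fasted 2, Slc25a16 without Fed 4, and Slc25a35 without Fed 1 or Fed 4. Slc25a38 and Slc25a48 were the calls lost without Fed 3 and Fasted 1. Without Fed 3 and Fasted 1, membrane transport genes gave 0 rises and 1 fall and import genes 0 rises. At a threshold of 0.01, membrane transport gave 0 and 0, enzymes 1 and 1, and import genes 0 rises. At 0.1, enzymes gave 7 falls, import genes 2 falls, and regulators 1 rise and 2 falls. DESeq2 gave 7 falls of enzymes, 2 of import genes, and 1 rise and 2 falls of regulators, and voom gave 6, 2, 2 and 2. Quantile normalization gave 1 rise of regulators, and TMM and a mean of at least 50 gave 1 fall of regulators each. Leaving out 1 mouse gave 0 to 1 rises and 1 to 4 falls for membrane transport, 5 to 6 and 1 to 5 for enzymes, 0 to 1 and 0 to 1 for import genes, and 0 to 1 and 0 to 2 for regulators. Over all genes 1656 were called, against 2382 with DESeq2, 2702 with voom, 1004 without Fed 1 and 861 without Fasted 4. The cause was not tested. No paired analysis was possible because the labels give the mice no shared replicate numbers. Counting error limits Ucp1, Ucp3 and Slc25a54, which rest on few reads.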
